A study of Mus musculus with 12 samples.

Results

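Ovgp1, A3galt2, Dpm1, Car15, Sds, Aspdh and Ldhd encode glycan and metabolic enzymes or their relatives, and their mRNA was measured here in the hippocampus of mice with and without the chromatin protein gene Dek. These 7 genes were chosen from the 26409 genes of the deposited table because their levels separated the Dek knockouts from the controls in these same libraries, so their genotype differences are given as a description without a test. The table holds TPM (a transcript's level per unit length, scaled for library size) for 12 bulk RNA-seq libraries in 4 groups of 3, namely female WT, male WT, female cKO and male cKO adult mice. The cKO mice carried a constitutive Dek deletion made by crossing a floxed allele, whose loxP sites flank early exons, to CMV-Cre mice, a line that recombines in all tissues, so the loss was neither limited to neurons nor timed to adulthood. The WT mice were wild type at Dek, the background was C57Bl/6, and all the mice had gone through behavioral testing before the tissue was taken. The study asked whether Dek loss changes the hippocampal transcriptome and whether it does so differently in females and males.

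Dek itself fell in the cKO libraries from 48.3 ± 2.58 TPM (SD, n = 6) to 7.23 ± 1.32 TPM (SD, n = 6), with a log2 difference of -2.74 (SE 0.103, limma adjusted p = 1.17e-08), and with WT values of 44.2 to 51.9 TPM and cKO values of 5.55 to 9.25 TPM. Female cKO replicate 3 and male cKO replicate 1 went against their sex labels. All 4 Y-linked genes examined (Ddx3y, Eif2s3y, Kdm5d and Uty) were at male levels in the library labelled female cKO replicate 3, with Eif2s3y at 72.7 TPM, whereas none was in the library labelled male cKO replicate 1, with Eif2s3y at 0.111 TPM. The genotype effects within each sex and their difference are therefore also given without both libraries. C57 opens the library names of the 3 female WT mice and CMV those of the other 9, so a difference in origin between these name series cannot be told apart from female WT status. Each library had between 18104 and 18719 genes above 0 TPM, and TPM does not keep the number of reads behind each library, which was not used here. All 11 hippocampal neuron markers were detected, summing to between 467 and 544 TPM in WT and between 440.03 and 645 TPM in cKO libraries.

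Glycans are sugar chains built stepwise by transferases that draw on activated sugar donors. Dpm1 is the catalytic subunit of dolichol-phosphate mannose synthase, which makes the mannose donor for N-glycans, GPI anchors and O-mannosylation in the endoplasmic reticulum. A3galt2 adds galactose in alpha-1,3 linkage to a glycolipid acceptor to form isoglobo-series glycosphingolipids, and Ovgp1 (oviductin) is a secreted glycoprotein best known from the oviduct, a chitinase family member that is not itself an active chitinase. Car15 is a GPI-anchored carbonic anhydrase, which interconverts carbon dioxide and bicarbonate. Sds deaminates serine to pyruvate and is best known from the liver, Aspdh is a putative aspartate dehydrogenase, and Ldhd is the mitochondrial dehydrogenase that turns D-lactate, an end product of methylglyoxal detoxification, into pyruvate. The 7 genes lie on 7 chromosomes.

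RefSeq promoter windows (GRCm38.p6, 250 bases before to 50 after a transcript start) were matched for 6 of the 7 genes. The Dpm1 window was rich in CpG, with 30 CpG against a median of 7 over 32851 windows of the same length. The windows of Ovgp1 and A3galt2 held 3 CpG each, that of Aspdh 1, that of Car15 4 and that of Ldhd 11. Stretches outside every annotated exon are shown for the gene with the strongest elevation (A3galt2), for both genes that were lower in cKO (Aspdh and Ldhd), and for Dpm1, where the stretch is the 30-base gap between its 5′-most start and the start of Mocs3 on the opposite strand. Capitals mark the motifs searched on both strands.
A3galt2, chr4:128759008-128759257, plus strand: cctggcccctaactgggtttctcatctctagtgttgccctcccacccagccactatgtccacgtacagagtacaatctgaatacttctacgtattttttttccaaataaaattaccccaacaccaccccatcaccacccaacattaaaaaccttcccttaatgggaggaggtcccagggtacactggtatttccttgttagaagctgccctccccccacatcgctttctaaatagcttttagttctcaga
Aspdh, chr7:44465185-44465390, plus strand: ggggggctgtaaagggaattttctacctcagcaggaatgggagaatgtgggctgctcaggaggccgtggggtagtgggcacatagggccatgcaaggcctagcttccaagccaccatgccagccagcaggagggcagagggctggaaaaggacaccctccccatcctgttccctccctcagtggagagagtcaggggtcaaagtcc
Ldhd, chr8:111630375-111630586, minus strand: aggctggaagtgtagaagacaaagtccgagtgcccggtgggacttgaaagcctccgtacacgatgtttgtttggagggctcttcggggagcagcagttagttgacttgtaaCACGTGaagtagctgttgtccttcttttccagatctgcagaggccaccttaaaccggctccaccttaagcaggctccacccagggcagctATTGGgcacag
Dpm1, chr2:168230592-168230621, minus strand: ggaaagagccgggaagggacttccgtttcc
The motifs were the GC box GGGCGG, the CCAAT box CCAAT, the TATA box TATAAA, the CRE core TGACGT, the ETS core CCGGAAG and the E-box CACGTG, none of which overlapped another in the stretches shown. They occur in 35.7%, 37.4%, 13.6%, 7.51%, 8.86% and 7.15% of all windows, respectively. The Ldhd stretch held an E-box and a CCAAT box, read on the opposite strand, and the other 3 stretches held no match. The whole Dpm1 window held 1 CCAAT box, 1 CRE core and 2 ETS cores, and the Car15 window held 1 CCAAT box. No motif was found in all 4 windows of genes that were higher in cKO, the window of Sds not being among those matched. The A3galt2 window lies inside the annotated gene, which has a longer transcript starting at chr4:128755364.

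The 5 genes that were higher in cKO ranged from a log2 fold change of 0.39 for Dpm1 to 1.88 for A3galt2, and the 2 that were lower were Aspdh at -0.64 and Ldhd at -0.48. In each of the 7 genes the 6 cKO values did not overlap the 6 WT values. Over the 18197 genes that averaged 0.1 TPM or more, 0.572% had every cKO value above every WT value and 0.104% had every cKO value below. Separation from WT was the ground on which the 7 were picked, so these counts carry no further weight. All fold changes are on the log2(TPM + 0.1) scale.

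**Figure D1:**
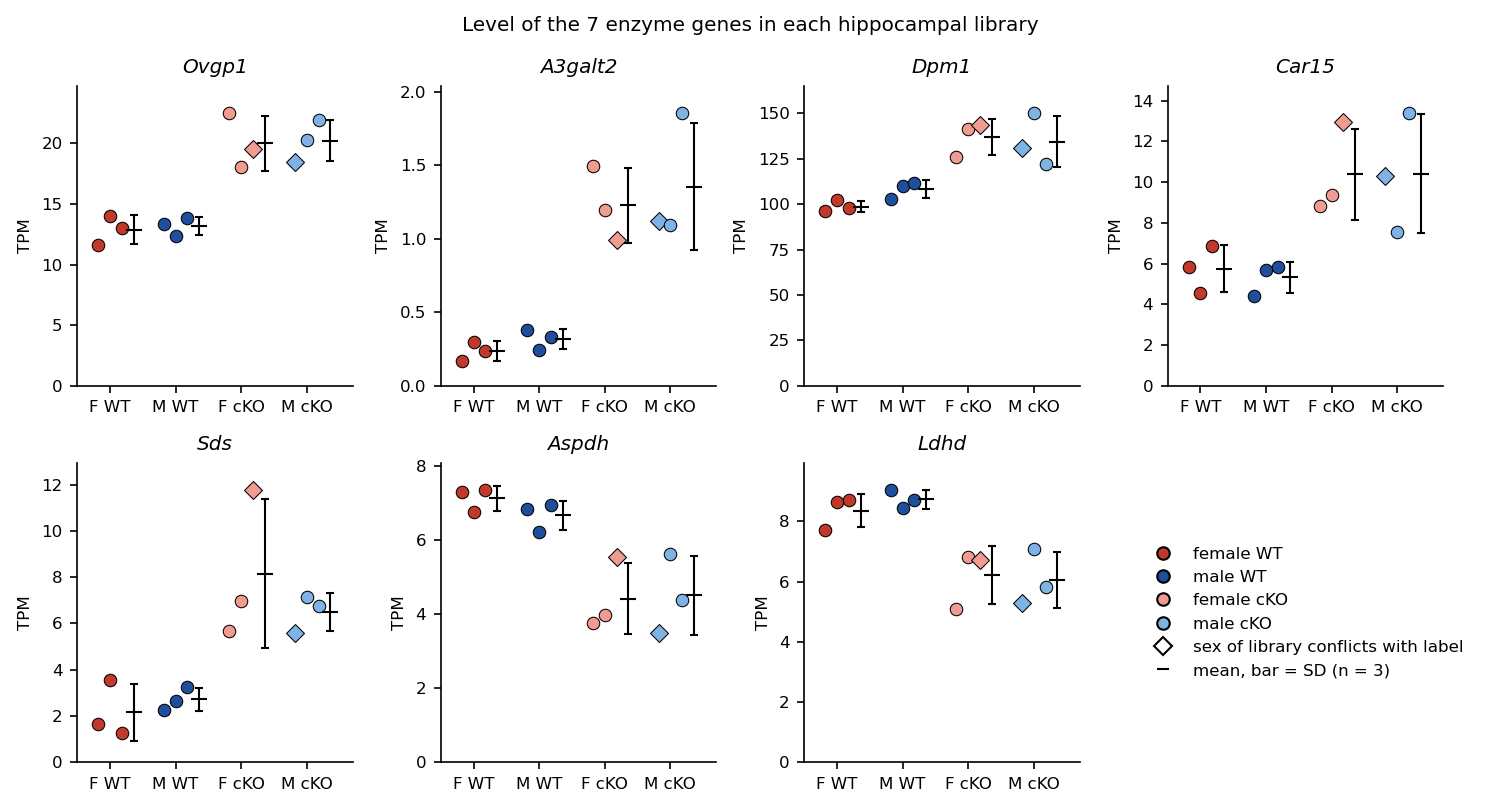
TPM of each gene (y axis, from 0) in the 12 libraries, by group (x axis, F female, M male), with points for libraries, diamonds for the 2 libraries whose Y-linked genes went against the sex label, and the mean with SD (n = 3) beside them. In every panel the cKO points lie on one side of all WT points, above in 5 genes and below in Aspdh and Ldhd.

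A3galt2 (ENSMUSG00000028794, chr4:128755364-128769298, plus strand) had the largest fold difference and the lowest level. Its TPM was 0.166, 0.302 and 0.237 in the female WT libraries (replicates 1 to 3, in that order here and for the genes that follow) and 0.379, 0.246 and 0.330 in the male WT libraries. In the cKO libraries it was 1.497, 1.19 and 0.994 in females and 1.12, 1.09 and 1.85 in males. Every cKO library was thus at least 0.615 TPM above the highest WT library, and the groups did not overlap. The mean went from 0.277 ± 0.0757 TPM to 1.29 ± 0.324 TPM (SD, n = 6 each), which is a 4.67-fold ratio of means and a log2 fold change of 1.88 (SE 0.22). Its WT level stood at the 9.85th percentile of the tested genes, so the pseudocount matters here more than for the other 6 genes, and with 0.5 or 1 in place of 0.1 the log2 fold change became 1.19 or 0.84.

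Dpm1 (ENSMUSG00000078919, chr2:168209048-168230591, minus strand) was at the other end of the scale, with the highest level and the smallest fold difference. It measured 96.1, 102 and 97.9 TPM in female WT and 103, 110.1 and 112 TPM in male WT libraries. The cKO values were 126, 142 and 144 TPM in females and 131, 150.1 and 122 TPM in males. The lowest cKO library, male replicate 3, stood 10.5 TPM above the highest WT library, male replicate 3. The means were 103 ± 6.35 and 136 ± 10.9 TPM (SD, n = 6 each), a 1.31-fold ratio and a log2 fold change of 0.39 (SE 0.06). At the 93.03rd percentile of WT levels, Dpm1 was the most abundant of the 7 transcripts in every library. The annotated read-through gene Gm20716 begins in the first Dpm1 exon on the same strand and was not analysed here.

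Ovgp1 (ENSMUSG00000074340, chr3:105973711-105987423, plus strand) was at 11.6, 13.996 and 13.0 TPM in female WT and 13.4, 12.4 and 13.8 TPM in male WT hippocampus. It reached 22.5, 18.1 and 19.5 TPM in female cKO and 18.5, 20.3 and 21.9 TPM in male cKO hippocampus. WT and cKO libraries were separated by a gap of 4.06 TPM, and spread was small in both genotypes, with a coefficient of variation of 6.97% in WT and 8.92% in cKO. The ratio of means was 1.54, with 13.0 ± 0.909 TPM in WT and 20.1 ± 1.79 TPM in cKO (SD, n = 6 each), or a log2 fold change of 0.62 (SE 0.07).

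Car15 (ENSMUSG00000090236, chr16:17835276-17838364, minus strand) was at 5.83, 4.57 and 6.88 TPM in female WT and 4.43, 5.68 and 5.86 TPM in male WT libraries, against 8.82, 9.39 and 13.0 TPM in female cKO and 10.3, 7.55 and 13.4 TPM in male cKO libraries. The groups were close at the edge, since male cKO replicate 2 was only 0.672 TPM above female WT replicate 3. The means were 5.54 ± 0.913 and 10.4 ± 2.33 TPM (SD, n = 6 each), with a log2 fold change of 0.88 (SE 0.15). The annotated gene Gm20518 runs on the same strand through Car15 and shares 1253 of its 1906 exon bases, so reads of the shared part cannot be assigned to either gene with certainty. Gm20518 was at 1.23 to 2.46 TPM in WT and 2.58 to 4.64 TPM in cKO libraries, which also did not overlap.

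Sds (ENSMUSG00000029597, chr5:120476526-120483932, plus strand) was the most variable of the 7 genes, with a coefficient of variation of 36.7% in WT and 31.2% in cKO. It was at 1.67, 3.57 and 1.26 TPM in female WT, 2.25, 2.66 and 3.26 TPM in male WT, 5.67, 6.99 and 11.8 TPM in female cKO, and 5.58, 7.12 and 6.77 TPM in male cKO libraries. The highest value came from female cKO replicate 3, which is 1 of the 2 libraries that went against the sex label, and the remaining cKO libraries lay between 5.58 and 7.12 TPM. The means were 2.44 ± 0.897 and 7.32 ± 2.28 TPM (SD, n = 6 each), with a log2 fold change of 1.58 (SE 0.25), and without both libraries of conflicting sex the log2 fold change was 1.48 (SE 0.26). With any 1 library left out it lay between 1.41 and 1.70. Plbd2, on the opposite strand, shares 360 of the 1694 Sds exon bases.

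Aspdh (ENSMUSG00000038704, chr7:44465391-44467758, plus strand) was lower in cKO. It was at 7.30, 6.76 and 7.37 TPM in female WT, 6.85, 6.24 and 6.96 TPM in male WT, 3.77, 3.97 and 5.54 TPM in female cKO, and 3.51, 5.63 and 4.40 TPM in male cKO libraries. The gap between the genotypes was 0.603 TPM. The WT libraries were tight, with a coefficient of variation of 5.97%, whereas that of the cKO libraries was 20.4%. The means were 6.91 ± 0.412 and 4.47 ± 0.913 TPM (SD, n = 6 each), a ratio of 0.647 and a log2 fold change of -0.64 (SE 0.12).

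Ldhd (ENSMUSG00000031958, chr8:111623785-111630374, minus strand) was at 7.72, 8.63 and 8.72 TPM in female WT, 9.05, 8.44 and 8.71 TPM in male WT, 5.11, 6.81 and 6.73 TPM in female cKO, and 5.28, 7.08 and 5.82 TPM in male cKO libraries. The highest cKO value, in male replicate 2, was 0.639 TPM below the lowest WT value, in female replicate 1. The means were 8.55 ± 0.449 and 6.14 ± 0.848 TPM (SD, n = 6 each), a ratio of 0.718 and a log2 fold change of -0.48 (SE 0.09). Znrf1, on the opposite strand, shares 2246 of the 5328 Ldhd exon bases and was at 66.9 ± 2.11 TPM in WT and 70.7 ± 8.58 TPM in cKO (SD, n = 6 each, log2 fold change 0.07, limma adjusted p = 0.925).

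The order of the 7 levels in TPM differed between the genotypes. In WT it ran from Dpm1 through Ovgp1, Ldhd, Aspdh, Car15 and Sds to A3galt2, and the ranges of neighbours in this order overlapped only for Aspdh and Car15, although Aspdh was above Car15 in 6 of 6 WT libraries. In cKO, Car15 and Sds stood above Ldhd and Aspdh, and the ranges of Car15 and Sds, of Sds and Ldhd, and of Ldhd and Aspdh overlapped. Within each of the 6 cKO libraries, however, the order Dpm1, Ovgp1, Car15, Sds, Ldhd, Aspdh and A3galt2 held without exception.

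Because the cKO and WT values of the 7 genes do not overlap over all 12 libraries, they cannot overlap or change direction in any subset, and the sizes below are a description. In the female libraries the log2 fold changes were 0.63 for Ovgp1, 1.99 for A3galt2, 0.47 for Dpm1, 0.84 for Car15, 1.93 for Sds, -0.70 for Aspdh and -0.43 for Ldhd. In the male libraries they were 0.61, 1.77, 0.31, 0.93, 1.23, -0.58 and -0.53 in the same order. Without both libraries of conflicting sex, the female values were 0.64, 2.12, 0.43, 0.67, 1.63, -0.87 and -0.49 and the male values 0.67, 1.88, 0.32, 0.92, 1.33, -0.42 and -0.44, again in the same order. In the CMV-named libraries, that is 6 cKO against 3 male WT, they were 0.60, 1.72, 0.32, 0.93, 1.36, -0.59 and -0.51. Sds thus moved by the widest amount, and its female value was lower without female cKO replicate 3.

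**Figure D2:**
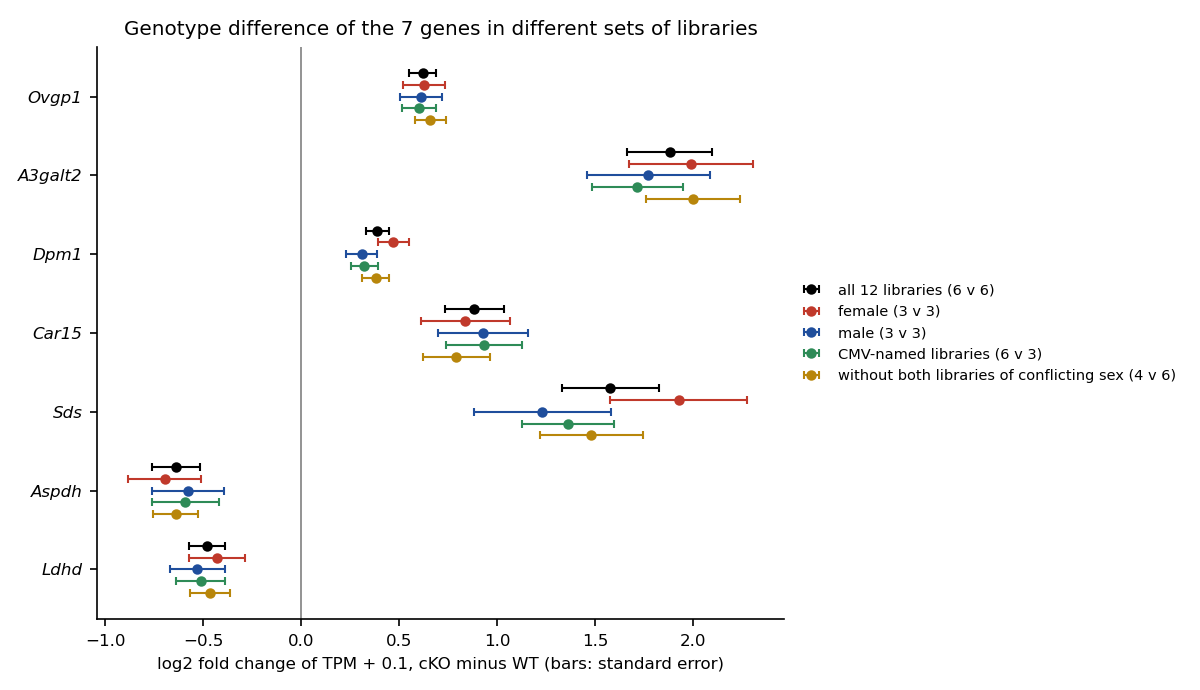
Log2 fold change of TPM + 0.1, cKO minus WT (x axis), of the 7 genes (y axis), with bars for the standard error, in all 12 libraries, in females, in males, in the CMV-named libraries and without the 2 libraries of conflicting sex. No gene changes direction between the sets, and Sds moves most, from 1.93 in females to 1.23 in males.

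The genotype by sex interaction asks whether the genotype effect differs between the sexes. It passed in 0 of the 7 genes with limma at an adjusted p of 0.05 (0% of all genes), and 0 of the 7 had an unadjusted p under 0.05 (4.23% of all genes). Genes whose cKO and WT values separate in every library tend to have a like shift in both sexes, so the choice of the 7 bears on these counts and nothing is read from them. Since only the female WT libraries were C57-named, a difference between name series would also enter the interaction. For Sds the male minus female difference of the genotype effect was -0.70 on the log2 scale (95% interval -1.79 to 0.39, adjusted p = 0.966), and for Dpm1 it was -0.16 (-0.41 to 0.08, adjusted p = 0.966). For A3galt2 it was -0.22 (-1.195 to 0.76) and for Ovgp1 -0.02 (-0.35 to 0.31). For Car15 it was 0.09 (-0.62 to 0.80), for Aspdh 0.12 (-0.45 to 0.69) and for Ldhd -0.10 (-0.54 to 0.34). The intervals, widest for Sds, A3galt2 and Car15, can hold sizeable sex differences, so a like response in the sexes is not shown. For Dpm1, Sds, Aspdh and Ldhd they reach past the size of the genotype effect itself (0.39, 1.58, -0.64 and -0.48). Without both libraries of conflicting sex, the values were 0.03 for Ovgp1, -0.24 for A3galt2, -0.11 for Dpm1, 0.24 for Car15, -0.30 for Sds and 0.06 for Ldhd, and Aspdh reached 0.45 (SE 0.19), with an unadjusted p under 0.05 that did not hold after adjustment (adjusted p = 0.555). An unadjusted p under 0.05 that did not hold after adjustment was also seen for Sds and Dpm1 when 1 library was left out. Leaving out female WT replicate 2 brought Sds to -1.11 (adjusted p = 0.986), and leaving out male cKO replicate 2 brought Dpm1 to -0.24 (adjusted p = 0.678).

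Male and female WT libraries were also compared. The female ones were all C57-named and the male ones all CMV-named, so sex and name series cannot be told apart here. With limma, 0 of the 7 genes passed at an adjusted p of 0.05 (0% of all genes), and 0 had an unadjusted p under 0.05 (3.63% of all genes). A choice of genes separated by genotype favours a narrow WT range, so nothing is read from these counts either. Male minus female log2 differences ran from -0.10 for Car15 (95% interval -0.61 to 0.40) to 0.43 for Sds (-0.34 to 1.205). Dpm1 was 0.13 (-0.04 to 0.31), with means of 108 ± 4.81 TPM in males and 98.7 ± 3.07 TPM in females (SD, n = 3 each), and the male libraries were each above the female ones. Leaving out female WT replicate 2 brought the Sds difference to 0.85, with an unadjusted p under 0.05 and an adjusted p of 1.

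Other genes of the same pathways or families did not follow the 7 genes as groups. Of 211 listed genes, 198 were tested on genotype, 0 passed with limma at an adjusted p under 0.05 and a fold over 1.2 in either direction, against 0.137% of all genes higher and 0.011% lower, and their median log2 fold change was 0.004 against 0.016 over all genes. At an unadjusted p under 0.05, 11 (5.56%) were higher and 1 (B3galt1, a galactosyltransferase) was lower, against 4.84% and 1.8% of all genes. Thus the share of nominally higher pathway genes was near the background. Without male cKO replicate 3 the 11 became 17, and without female cKO replicate 2 or male WT replicate 3 it became 7. Over all genes, the 880 nominally higher became 928, 769 and 754 in these 3 settings.

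Relatives and partners of each gene are given whatever their values, and the gene with the smallest p of each pathway list is named beside them, each of which had an unadjusted p under 0.05. Dpm2 and Dpm3, the regulatory and anchoring partners of Dpm1, had log2 fold changes of 0.11 (SE 0.05, limma adjusted p = 0.788) and 0.10 (SE 0.09, adjusted p = 0.904). Among users of the mannose donor, Pomt1, which starts O-mannosyl glycans, had the smallest p of its list, at 0.19 (adjusted p = 0.714). Ggta1 and Gbgt1, the galactosyl- and N-acetylgalactosaminyltransferase relatives of A3galt2, were at 0.14 (adjusted p = 0.922) and -0.24 (adjusted p = 0.957). St3gal5, which makes ganglioside GM3 from the same kind of acceptor, was at 0.16 (adjusted p = 0.628), with 78.6 ± 4.71 TPM in WT and 88.1 ± 8.06 TPM in cKO (SD, n = 6 each).

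In the chitinase family, Chil1 was at 0.35 (unadjusted p under 0.05, adjusted p = 0.674) and Chid1 at -0.02 (adjusted p = 0.988). Chil3, a chitinase-like protein of myeloid cells, was at 1.04 (adjusted p = 0.568), but its mean level was only 0.0471 TPM in WT and 0.209 TPM in cKO. Among carbonic anhydrases, Car2 at 0.01 (adjusted p = 0.999) and Car4 at -0.06 (adjusted p = 0.981) stayed near 0. Slc4a8, a sodium-driven bicarbonate exchanger, led its list at 0.26 (adjusted p = 0.552).

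Sdsl, the closest relative of Sds and its neighbour on chromosome 5, was at -0.19 (SE 0.19, adjusted p = 0.920), and Srr, the serine racemase, at -0.01 (adjusted p = 0.991). Gnmt, glycine N-methyltransferase, had the smallest p of all 198 pathway genes, with 1.93 ± 0.698 TPM in WT and 3.39 ± 0.722 TPM in cKO (SD, n = 6 each, log2 fold change 0.83, adjusted p = 0.289), and its ranges of 1.16 to 3.18 and 2.82 to 4.55 TPM overlapped. The aspartate aminotransferases Got1 and Got2 were at -0.02 (adjusted p = 0.976) and -0.05 (adjusted p = 0.941). Kmo, kynurenine 3-monooxygenase, led the aspartate and NAD list at 0.59 (adjusted p = 0.714). The L-lactate dehydrogenases Ldha and Ldhb were at 0.06 (adjusted p = 0.941) and 0.31 (SE 0.18, adjusted p = 0.841), and Hao2, a hydroxyacid oxidase, led the lactate list at 0.78 (adjusted p = 0.628).

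**Figure D3:**
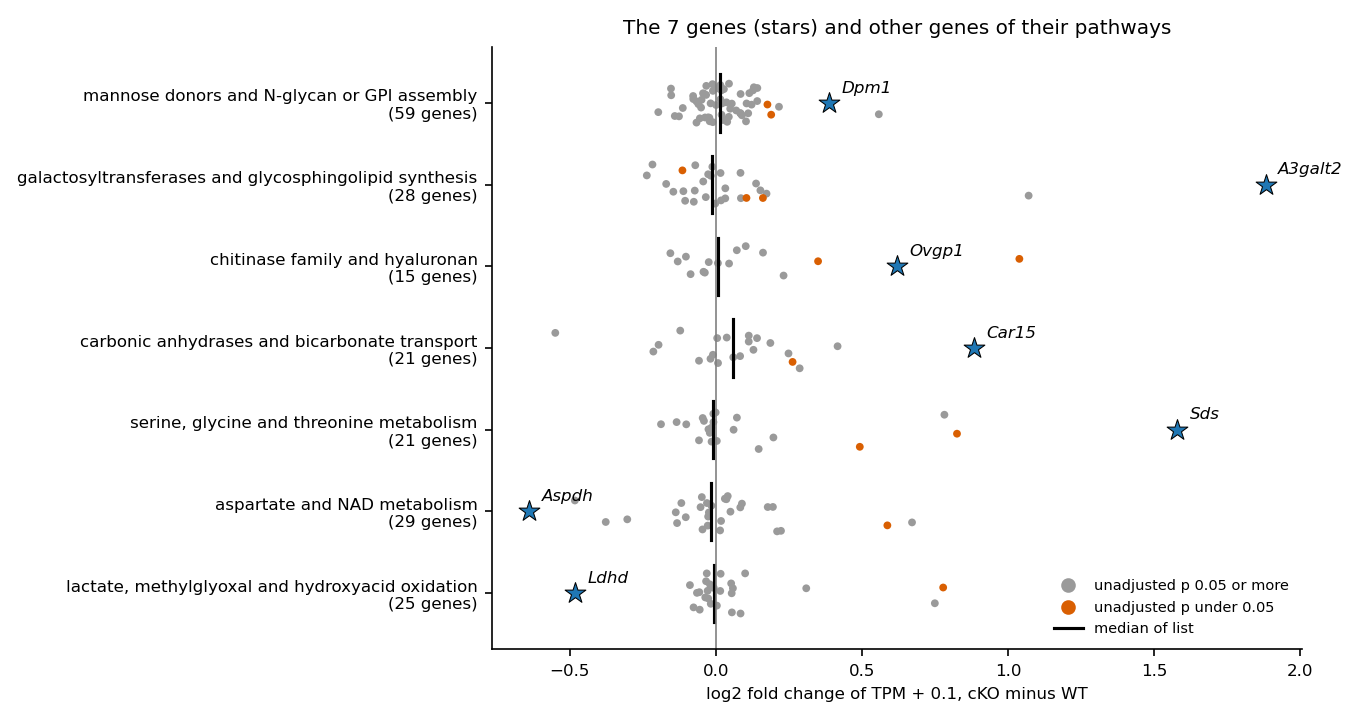
Log2 fold change of TPM + 0.1, cKO minus WT (x axis), of the 198 tested genes in 7 pathway lists (points, orange where the unadjusted p was under 0.05), with the median of each list (bars) and the 7 chosen genes (stars). The list medians lie between -0.01 and 0.06, while the stars lie between -0.64 and 1.88.

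The genes next to the 7 on their chromosomes were tested in the same way, taking the 3 nearest tested genes on each side. Of these 42 neighbours, 0 passed with limma at an adjusted p under 0.05 and a fold over 1.2, and 4 (9.52%) were higher and 0 lower at an unadjusted p under 0.05, against the 4.84% and 1.8% of all genes given above. The 4 were Gm20518 (0.73, adjusted p = 0.271), which shares exons with Car15, Plbd2 (0.20, adjusted p = 0.674), which shares exon bases with Sds on the opposite strand, Wdr77 beside Ovgp1 (0.19, adjusted p = 0.596), and Fam71e1 near Aspdh (1.06, adjusted p = 0.716). Without both libraries of conflicting sex this count was 1, and without female WT replicate 1 or male cKO replicate 1 it was 2. Over all genes, the 880 nominally higher became 901, 773 and 819 in these 3 settings. Mocs3, which starts within the Dpm1 window on the opposite strand, was at 10.6 ± 1.06 TPM in WT and 10.3 ± 0.804 TPM in cKO (SD, n = 6 each, log2 fold change -0.04, adjusted p = 0.979). Josd2, 0.22 kb downstream of Aspdh, was at -0.08 (adjusted p = 0.942), and Phc2, the neighbour of A3galt2, at 0.06 (adjusted p = 0.949).

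**Figure D4:**
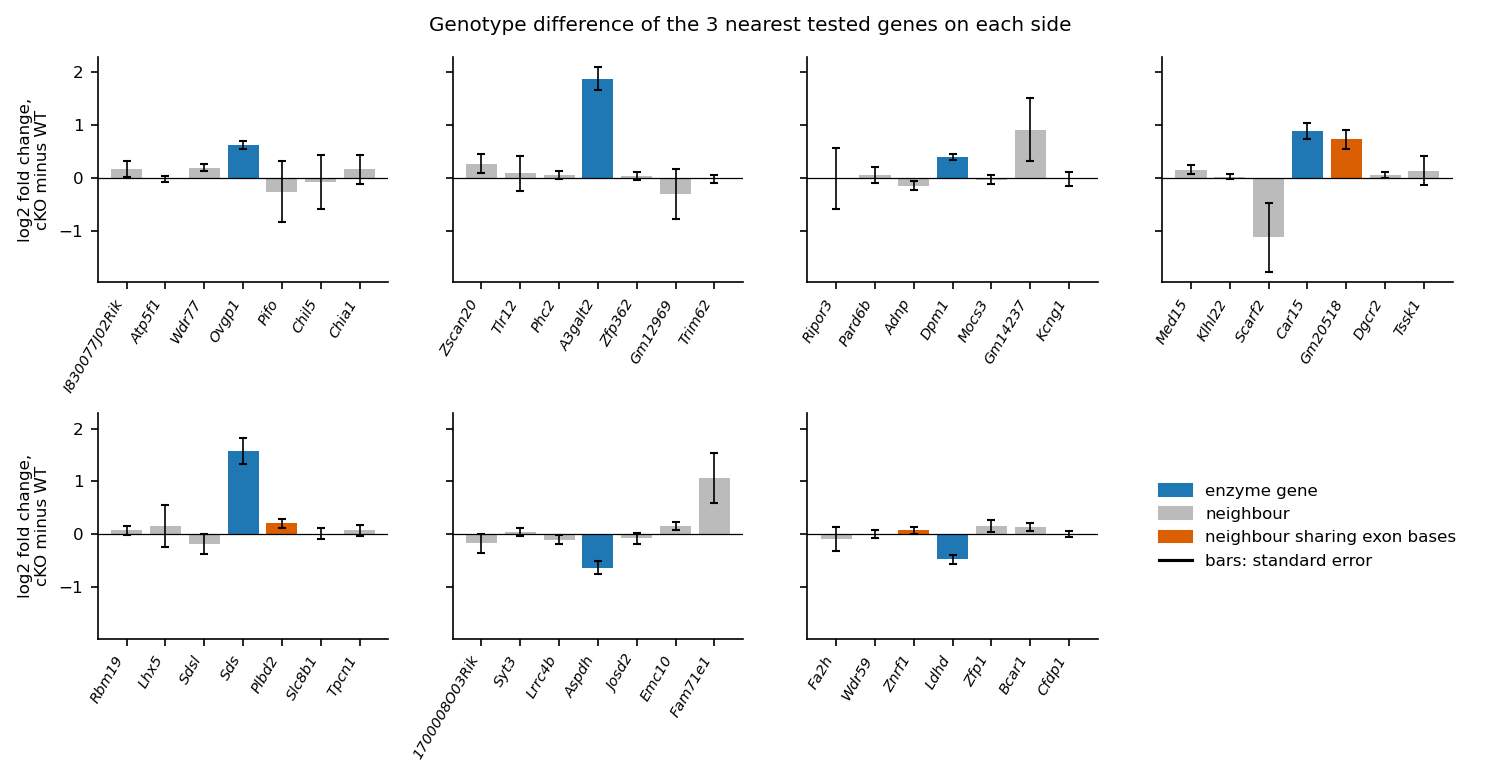
Log2 fold change of TPM + 0.1, cKO minus WT (y axis), of each chosen gene (blue) and the 3 nearest tested genes on each side in chromosomal order (x axis), with bars for the standard error and orange for neighbours that share exon bases with the chosen gene. Gm20518 beside Car15, at 0.73, is the only orange bar near the height of its blue neighbour at 0.88.

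The expression patterns most like each gene over the 12 libraries, taken from the 14160 genes averaging 1 TPM or more, often included another of the 7. The highest Pearson correlations of log2 values were with Perm1 for Ovgp1 (0.944), Ovgp1 for A3galt2 (0.978), Sds for Dpm1 (0.914), Gpr151 for Car15 (0.925), Dpm1 for Sds (0.914), Ldhd for Aspdh (0.914) and Aspdh for Ldhd (0.914). Next came Gm15319 for Ovgp1 (0.936), Dpm1 (0.906) and Sds (0.894), Ackr1 for A3galt2 (0.950), Ankrd29 for Car15 (0.922), 1110059G10Rik for Aspdh (0.910) and Dek for Ldhd (0.887). A3galt2 averaged under 1 TPM and was not a candidate, although its correlation with Ovgp1 (0.978) was above that of Perm1. These correlations carry the genotype difference that the 7 genes share, but to unlike degrees. With the 4 group means taken out, Car15 kept 0.871 with Gpr151 and 0.850 with Ankrd29, and Aspdh kept 0.864 with 1110059G10Rik. Those with Gm15319 fell to 0.0537 for Ovgp1, 0.249 for Dpm1 and 0.380 for Sds. Between these lay Perm1 for Ovgp1 (0.460), Ackr1 for A3galt2 (0.555), Sds for Dpm1 (0.509) and Dek for Ldhd (0.398). The partners were picked as the most correlated of the 14160 genes in these same libraries. That choice favours high values within groups too, so nothing is read from them. As deviations from the 4 group means over the same 12 libraries, the 21 pairs among the 7 genes had a median correlation of 0.01, with 11 positive and 10 negative. The highest of the 21 were Ovgp1 and A3galt2 (0.797), Aspdh and Ldhd (0.722) and Dpm1 and Ldhd (0.746), although Dpm1 was higher and Ldhd lower in cKO. The lowest was A3galt2 and Dpm1 (-0.578). These pairs are named for their values, with no test. Over the 10 libraries left without those of conflicting sex, these 4 values were 0.798, 0.582, 0.755 and -0.614, and the median over pairs was -0.20, with 9 positive and 12 negative.

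Markers of other cells that a dissected hippocampus can hold were summed for each library. In bulk tissue, fewer cells of a type and less RNA per cell cannot be told apart. Choroid plexus was the most uneven, with sums of 193 to 3580 TPM in WT and 144 to 5322 TPM in cKO libraries, and with 11 of 12 markers at a higher mean log2 level in cKO (median log2 fold change 0.21), none passing the test. Ependymal markers were lower for 7 of 8 genes (median -0.32) without passing, with sums of 20.8 to 64.6 TPM in WT and 18.0 to 61.4 TPM in cKO. Male cKO replicate 3 had the highest astrocyte sum, at 1823 TPM against 810 to 919 TPM in WT, and also the highest A3galt2 and Car15 values. The astrocyte sums leaned on Gfap, which reached up to 1267 TPM in cKO against 208 to 285 TPM in WT. Of the 6 astrocyte markers, 3 were higher and 3 lower in cKO by log2 fold change. With any 1 library left out, the log2 fold change of A3galt2 lay between 1.78 and 1.96 and that of Car15 between 0.81 and 0.97. The sums of cortical markers were 89.1 to 111 TPM in WT and 64.9 to 190.4 TPM in cKO. Thalamus and habenula markers summed to between 89.6 and 123 TPM in WT and between 91.7 and 134 TPM in cKO libraries. Of these 8 markers, 7 were higher and 1 lower in cKO (median log2 fold change 0.06), none passing the test. Their highest sum was in female cKO replicate 3, where Car15 was at 13.0 TPM. No marker in any list was at 0 in all 12 libraries, although the lowest value of the ependymal marker Rarres2 was 0 TPM in both genotypes. No list had a gene called, and the part of these cells in the differences of the 7 genes was not tested.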

How the data were processed

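Hippocampal RNA of 12 mice was sequenced from poly-A selected, stranded libraries. The authors deposited 1 table of TPM values per gene and library. Their processing notes name kallisto and mm10, whereas the methods describe an nf-core workflow with STAR on GRCm38 and Salmon, and which of these wrote the table is not given in the sources used here. Of 26409 Ensembl identifiers, 25245 matched GENCODE M21. TPM keeps no depth, so no counting error could be given. Groups came from genotype and sex in the labels. The deposited values were tested as log2(TPM + 0.1) over the 18197 genes averaging 0.1 TPM or more, using limma 3.58.1 in R 4.3.3 with trended prior variance and Benjamini-Hochberg adjustment, two-sided, in a 2-group fit for genotype and a 4-group fit for sex. Calls needed an adjusted p under 0.05 and a fold over 1.2. The fit was tested on simulated data with shifts larger than most of the differences given here, so that test does not bear on smaller ones. The 7 genes and the lists were chosen with earlier results of these data known.

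Named genes were the 7, Dek, 4 Y-linked genes, fixed relatives, the gene of smallest p in each pathway list, neighbours with an unadjusted p under 0.05, and the 2 genes most correlated with each of the 7. B3galt1, Mocs3, Josd2, Phc2 and Znrf1 were named after their values were seen. The labels give replicates by number only, so p-values measure the spread between libraries, which may be partly technical. Alternatives were other pseudocounts, filters, scalings and prior variance, a sex covariate, a replicate block, and sets of libraries. The RefSeq promoter windows were searched as given.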

Additional observations from a re-analysis of the deposited data

Results flagged for a closer look

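The highest and lowest values of 33 genes (the 7, Dek, 14 relatives, the 7 genes that led the pathway lists and the 4 neighbours with an unadjusted p under 0.05) were checked for standing apart within the 6 WT and the 6 cKO libraries by Dixon's criterion, which chance alone meets in about 1 in 20 groups. Of 66 groups, 9 met it, and 1 of these was in the 7 genes: Sds in female cKO replicate 3, at 11.8 TPM, where the gap to the next library was 0.750 of the range. Male cKO replicate 3 was highest for Gm20518 (4.64 TPM) and Ldha (327 TPM) and lowest for Car4 (39.9 TPM). Female WT replicate 3 was lowest for Chid1 (32.4 TPM) and Ldhb (55.0 TPM). Plbd2 was lowest in male cKO replicate 2 (31.6 TPM), Dpm2 in male WT replicate 3 (79.8 TPM), and Pomt1 was highest in female cKO replicate 1 (25.8 TPM).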

How the results depend on the processing

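All 7 genotype differences kept their sign under each alternative that could be run, 23 for each gene and 22 for A3galt2, which drops out at a minimum mean of 1 TPM, although for subsets of the libraries the choice of separated genes fixes the sign. The log2 fold changes ranged from 0.59 to 0.66 for Ovgp1, 0.84 to 2.00 for A3galt2, 0.32 to 0.42 for Dpm1, 0.79 to 0.97 for Car15, 1.28 to 1.70 for Sds, -0.71 to -0.55 for Aspdh and -0.52 to -0.43 for Ldhd. Only A3galt2 moved by more than the spread between libraries, with the pseudocounts given above. No member passed the interaction or WT sex test after adjustment in any alternative. At an unadjusted p under 0.05 the interaction count was 1 without both libraries of conflicting sex and 0 to 1 with 1 library left out, as was the WT sex count (0 to 1). Over all 18197 genes the interaction counts were 377 positive and 393 negative with all 12 libraries. They became 551 and 1056 without both libraries of conflicting sex, 738 and 530 without male cKO replicate 2, and 325 and 438 without female WT replicate 2. Pathway genes nominally higher numbered 7 to 17 with 1 library left out, and nominally lower 2 with median ratio rescaling, without both libraries of conflicting sex or in CMV-named libraries, 0 with sex as a covariate, and 0 to 2 with 1 library left out. Neighbours nominally higher numbered 1 without both libraries of conflicting sex and 2 to 6 with 1 library left out, and nominally lower 1 with median ratio rescaling and 0 to 1 with 1 library left out. Over all 18197 genes, 754 to 1063 were nominally higher and 268 to 390 nominally lower with 1 library left out. Without both libraries of conflicting sex these numbers were 901 and 445. The causes were not tested. Over all genes, 25 higher and 2 lower calls became 15 and 2 without a filter, 9 and 3 without both libraries of conflicting sex, 6 and 4 in CMV-named libraries, and at an unadjusted p the split of 880 higher to 328 lower became 771 to 502 with median ratio rescaling and 674 to 510 with quantile normalization.

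Same-numbered libraries did not deviate together (correlations of -0.04 to 0.04 over 6 pairs), so the numbers were not taken as pairs. With a replicate block the fold changes were the same (Sds 1.58), 0 members passed the interaction, 14 pathway genes and 3 neighbours were nominally higher, and the calls over all genes were 2 higher and 1 lower.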
